A study of Mus musculus with 10 samples.

Results

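Immediate early genes are the first to be transcribed when a cell receives a signal, and 10 of them that act in transcription are described here in mouse neuroblastomas: Fos, Fosb, Jun, Junb, Egr1, Egr2, Egr3, Nr4a1, Klf6 and Ier2. They were taken by name, as every non-control probe of the array that carries 1 of these gene names, which gave 10 probes, 1 per gene, among 55681 distinct probes. Fos was printed as 10 spots and each of the other genes as 1 spot. The Egr3 probe was not well above background on any array, in the tumour or in the reference channel, so 9 of the 10 genes were among the 22229 genes tested.

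The 10 tumours came from 10 mice, 5 in each of 2 groups, and all were untreated. Both groups carried a MYCN transgene in heterozygous form (MYCN+/-). The ALK/MYCN mice carried in addition a heterozygous transgene for ALK with the F1174L mutation, a change that leaves this receptor tyrosine kinase active without its ligand, and were of a C57BL/6 x 129X1/SvJ background. The MYCN mice were 129X1/SvJ. Genotype and background were therefore confounded and cannot be told apart here. The labels do not name the promoter of either transgene, the age of the mice or the part of the tumour that was taken. Each Agilent mouse array received the RNA of 1 tumour in Cy3 and, in Cy5, a reference RNA from 11 mouse cell lines. Every value is therefore a log2 ratio of tumour over reference, and a value below 0 means a weaker signal than in the cell lines. Levels of different genes cannot be compared on this scale.

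Immediate early genes need no new protein for their induction, because the factors that switch them on are already present and are activated by phosphorylation. Growth factor receptors reach them through the MAP kinase cascade and the RSK kinases, serum response factor (Srf) with its ternary complex partners such as Elk1, and the CREB family. Fos and Jun proteins pair to form the AP-1 factor, the EGR proteins are zinc finger factors, and Nr4a1 is an orphan nuclear receptor. Klf6 is a zinc finger factor of the Krueppel-like family, and Ier2 is a small nuclear protein of the same early response. Their transcripts are short-lived, and in sympathetic neurons they are known to respond to growth factors and to depolarisation.

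The bases before the transcription start are shown for 4 of the genes: Klf6 and Nr4a1, the members that rose, and Fos and Fosb, which had the highest Pearson r with Nr4a1 over the tumours. The sequences are the 250 bases before each start in RefSeq, build GRCm38.p6, 5′ to 3′ on the strand of the gene. They lie at chr15:101266596-101266845 (plus strand) for Nr4a1, chr12:85473640-85473889 (plus strand) for Fos, chr7:19310046-19310295 (minus strand) for Fosb and chr13:5861239-5861488 (plus strand) for Klf6. Capitals mark matches to the motifs searched on both strands.
Nr4a1: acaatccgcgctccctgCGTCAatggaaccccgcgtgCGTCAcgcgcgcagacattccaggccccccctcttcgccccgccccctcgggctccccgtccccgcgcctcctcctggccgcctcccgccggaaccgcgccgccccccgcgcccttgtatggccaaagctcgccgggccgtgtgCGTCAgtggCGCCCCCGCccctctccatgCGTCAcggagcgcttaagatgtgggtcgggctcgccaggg
Fos: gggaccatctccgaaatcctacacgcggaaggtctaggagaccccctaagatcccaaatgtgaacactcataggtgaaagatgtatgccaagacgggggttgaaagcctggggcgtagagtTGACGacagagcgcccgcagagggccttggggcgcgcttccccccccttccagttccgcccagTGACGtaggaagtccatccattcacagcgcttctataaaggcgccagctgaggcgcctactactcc
Fosb: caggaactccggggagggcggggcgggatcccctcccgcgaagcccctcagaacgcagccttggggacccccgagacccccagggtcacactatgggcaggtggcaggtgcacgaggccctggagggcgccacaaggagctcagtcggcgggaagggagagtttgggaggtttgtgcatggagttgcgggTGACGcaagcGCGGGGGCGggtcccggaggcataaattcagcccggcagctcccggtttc
Klf6: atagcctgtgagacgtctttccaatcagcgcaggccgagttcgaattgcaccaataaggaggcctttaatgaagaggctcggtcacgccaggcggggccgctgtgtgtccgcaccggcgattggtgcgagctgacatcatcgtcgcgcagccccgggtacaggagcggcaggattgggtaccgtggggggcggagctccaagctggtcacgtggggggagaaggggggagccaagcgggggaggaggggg

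The motifs searched were the CArG box bound by Srf, the cAMP response element TGACGTCA and its core TGACG, the EGR sites GCGTGGGCG and GCGGGGGCG, and the AP-1 site TGANTCA. The core TGACG is contained in TGACGTCA. Nr4a1 held 4 matches to TGACG, all on the opposite strand and so printed as CGTCA, the nearest ending 36 bases before the start. It also held GCGGGGGCG on the opposite strand, printed as CGCCCCCGC. Fos held TGACG 2 times, 129 to 125 and 66 to 62 bases before the start. Fosb held TGACG and GCGGGGGCG 1 time each. Of 32851 promoter windows of this length in RefSeq, 17.8% held TGACG at least 1 time, 3.9% at least 2 times and 0.137% at least 4 times, and 2.57% held GCGGGGGCG. The Klf6 window held no match to any of the 6 motifs. Of the 10 genes, 7 had promoter windows in this search, which left out members on chromosome 18, where the Egr1 probe lies. No promoter entry was matched for Egr3 and Ier2, whose probes lie on other chromosomes. The counts below therefore do not cover Egr1, Egr3 and Ier2. TGACG was found for 5 of the 7 (Fos, Fosb, Junb, Egr2 and Nr4a1), against 19.8% of all genes with windows. The CArG box was found for 1 of the 7 (Egr2), against 1.62% of all genes and 1.47% of all windows. Sites beyond the 250 bases were not searched, so these counts do not show whether a gene has more distant sites. No window of the 7 genes held TGACGTCA, GCGTGGGCG or TGANTCA, which occur in 1.55%, 0.536% and 6.75% of all windows. A match is a run of letters and not a measured binding site.

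The comparison sets ALK/MYCN against MYCN tumours, which differ in the ALK transgene and in strain background. Rose and fell mean higher and lower in ALK/MYCN tumours. Klf6 and Nr4a1 rose in the ALK/MYCN tumours, 2 of the 9 genes tested, and none fell. Of all genes tested, 14.2% were higher and 12.2% lower in ALK/MYCN tumours (26.5% in all, limma with Benjamini-Hochberg adjustment at 0.05). The estimate was above 0 for 8 of the 9, as it was for 11002 of the 22229 genes tested. The median difference was 0.66, against -0.0036 over all genes. The groups did not overlap for 1 of the 9 genes, Klf6, and did not overlap for 20% of all genes. The differences ranged from -0.05 for Egr2 to 2.50 for Nr4a1.

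**Figure D1:**
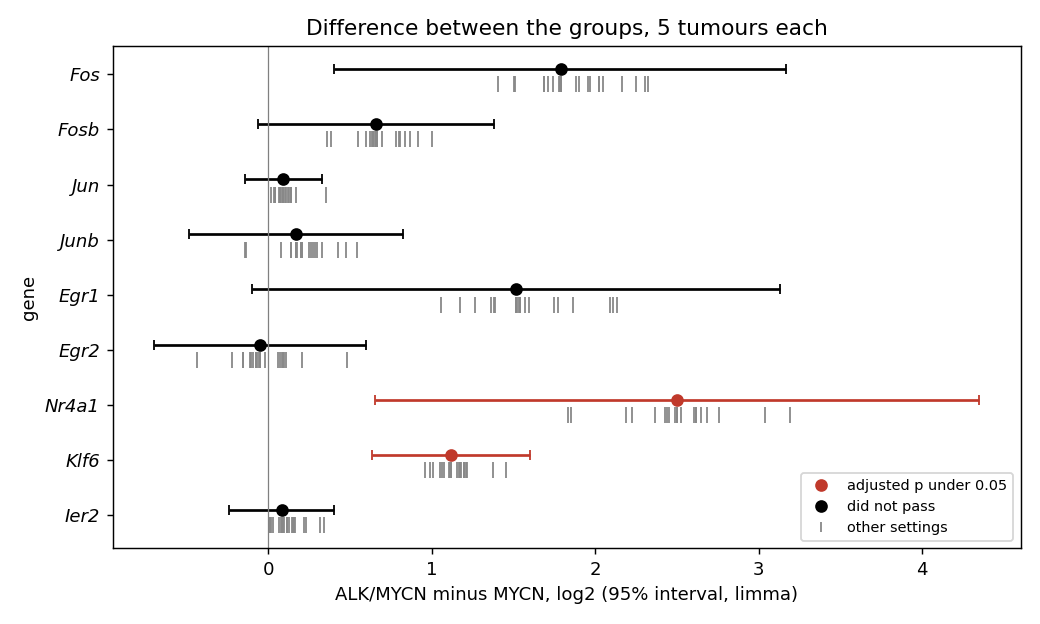
Difference of ALK/MYCN minus MYCN tumours (log2, x axis) for the 9 genes tested, as points with 95% confidence intervals from limma that are not adjusted for the number of genes, 5 tumours per group; grey ticks are the differences in the other settings. The intervals of Klf6 (0.638 to 1.6), Nr4a1 and Fos lie above 0, and those of the other genes reach below 0; red marks the genes that passed after adjustment, Klf6 and Nr4a1.

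Klf6 showed the clearest separation. In ALK/MYCN tumours 1 to 5 its log2 ratios were -0.43, -0.39, -0.76, 0.00 and -0.63, and in MYCN tumours 1 to 5 they were -2.21, -1.24, -1.34, -1.18 and -1.84. Every ALK/MYCN tumour was above every MYCN tumour, and the spread within either group was smaller than the gap between the group means. The means were -0.44 ± 0.29 and -1.56 ± 0.45 (SD, n = 5 each), a difference of 1.12 ± 0.22 (SE) or 2.17-fold (limma, adjusted p = 0.00535). The difference lay between 0.96 and 1.46 in all 25 other settings tried and passed the test in each of them. The probe lies at chr13:5869371-5869430 on the plus strand (mm9).

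Nr4a1 had the largest difference and the largest scatter. Its values in ALK/MYCN tumours 1 to 5 were -0.99, 0.99, 2.42, -3.03 and -0.66, and in MYCN tumours 1 to 5 they were -3.04, -2.65, -2.29, -3.00 and -2.81. Of the ALK/MYCN tumours, 4 were above every MYCN tumour, and ALK/MYCN 4 lay at the level of the MYCN tumours. The means were -0.25 ± 2.07 and -2.75 ± 0.30 (SD, n = 5 each). The difference was 2.50 ± 0.83 (SE), or 5.66-fold, and its adjusted p of 0.0493 (limma) was close to the threshold of 0.05. The test was passed in 8 of the 25 other settings. When single tumours were left out, the gene passed without ALK/MYCN 4 (3.19, limma adjusted p = 0.00874) and missed the threshold without any of the other 9 tumours (limma adjusted p up to 0.102). Without ALK/MYCN 3 the difference was 1.83 (limma adjusted p = 0.0679). The Nr4a1 probe lies at chr15:101105071-101105130 on the plus strand (mm9).

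**Figure D2:**
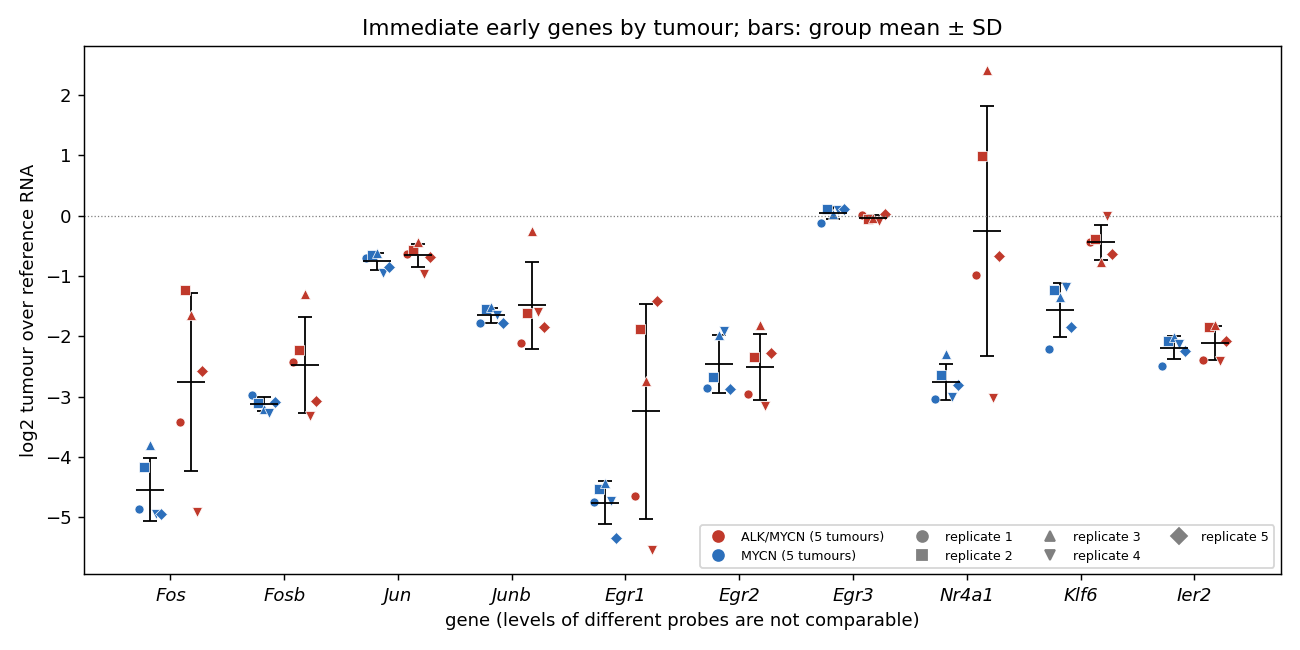
Log2 ratio of tumour over reference (y axis) of each tumour for each of the 10 genes, with 5 ALK/MYCN and 5 MYCN tumours as points, shaped by replicate number, and bars for the group mean ± SD. Klf6 separates the groups, while for Nr4a1 and Fos 4 ALK/MYCN tumours lie above all MYCN tumours and ALK/MYCN 4 does not.

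The FOS family members pair with JUN proteins in AP-1. Fos, its best known member, stood at -3.42, -1.23, -1.64, -4.91 and -2.58 in ALK/MYCN tumours 1 to 5 and at -4.86, -4.17, -3.81, -4.94 and -4.95 in MYCN tumours 1 to 5. As for Nr4a1, 4 ALK/MYCN tumours were above every MYCN tumour, and ALK/MYCN 4 lay within the range of the MYCN tumours. The mean of the ALK/MYCN tumours was -2.75 ± 1.47 and that of the MYCN tumours -4.54 ± 0.52 (SD, n = 5 each). The difference of 1.79 ± 0.62 (SE, 3.46-fold) did not pass the test (limma, adjusted p = 0.0579). It passed in 5 of 25 other settings, among them the fit without ALK/MYCN 4 (2.33, limma adjusted p = 0.00809). Over the 10 Fos spots of an array the SD was 0.0391 to 0.256, smaller than the SD between tumours of either group. The Fos probe lies at chr12:86817900-86817959 on the plus strand (mm9).

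Fosb, the second FOS family member, was at -2.42, -2.23, -1.29, -3.32 and -3.07 in ALK/MYCN tumours 1 to 5. The MYCN tumours lay close together, at -2.97, -3.10, -3.21, -3.27 and -3.08. ALK/MYCN tumours 1, 2 and 3 were above all of them, and ALK/MYCN 4 was below all of them. The difference of 0.66 ± 0.32 (SE) did not pass the test (limma, adjusted p = 0.16), and it was 0.36 without ALK/MYCN 3, the highest tumour.

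The JUN family members differed less. Jun, the partner of Fos in AP-1, lay between -0.96 and -0.44 in ALK/MYCN tumours. In MYCN tumours it lay between -0.95 and -0.61, a difference of 0.09 with a 95% interval of -0.141 to 0.33 (limma, adjusted p = 0.546). Junb, which forms AP-1 dimers of weaker activity than Jun, differed by 0.17 with an interval of -0.483 to 0.828 (limma, adjusted p = 0.703). Its value was -0.245 in ALK/MYCN 3 and -2.11 to -1.59 in the other ALK/MYCN tumours, and without ALK/MYCN 3 the difference was -0.14. The MYCN tumours were at -1.78 to -1.52. The interval of Jun thus ends at 0.33, and that of Junb at 0.83.

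Among the EGR genes, Egr1, a factor often read as a marker of MAP kinase signalling, had the widest range next to Nr4a1. Its values were -4.65, -1.88, -2.74, -5.55 and -1.42 in ALK/MYCN tumours 1 to 5 and -4.75, -4.53, -4.44, -4.73 and -5.35 in MYCN tumours 1 to 5. ALK/MYCN tumours 2, 3 and 5 were above every MYCN tumour, ALK/MYCN 1 lay within the MYCN range and ALK/MYCN 4 was the lowest of all. The difference of 1.51 ± 0.72 (SE, 2.86-fold) did not pass the test (limma, adjusted p = 0.15). It passed in 1 of 25 other settings, the fit without ALK/MYCN 4 (2.09, limma adjusted p = 0.0323), and was 1.06 without ALK/MYCN 5 (limma, adjusted p = 0.3).

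Egr2, a factor known from Schwann cell myelination and hindbrain segmentation, differed by -0.05 with an interval of -0.698 to 0.597 (limma, adjusted p = 0.916). Its ALK/MYCN values ran from -3.15 to -1.82 and its MYCN values from -2.87 to -1.91, so that the range of the first group contained that of the second. The sign of this estimate was kept in 17 of 25 other settings. For Egr3 no fold is given, because the probe was not well above background in any tumour. Ier2 ran from -2.41 to -1.81 over the ALK/MYCN tumours, and its MYCN values ran from -2.50 to -2.02. It differed by 0.08, with an interval of -0.238 to 0.404 (limma, adjusted p = 0.708).

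The tumours were not alike within the ALK/MYCN group. ALK/MYCN 3 had the highest value of all 10 tumours for 6 genes (Nr4a1, Fosb, Junb, Jun, Egr2 and Ier2), and ALK/MYCN 4 had the lowest value for 4 (Egr1, Egr2, Fosb and Jun) and the highest for Klf6. When each of the 9 genes was centred over all tumours, their mean was -0.02, 0.97, 1.28, -0.56 and 0.51 in ALK/MYCN tumours 1 to 5. In MYCN tumours 1 to 5 it was -0.64, -0.31, -0.15, -0.43 and -0.66. Only ALK/MYCN 4 thus lay within the range of the MYCN tumours.

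**Figure D3:**
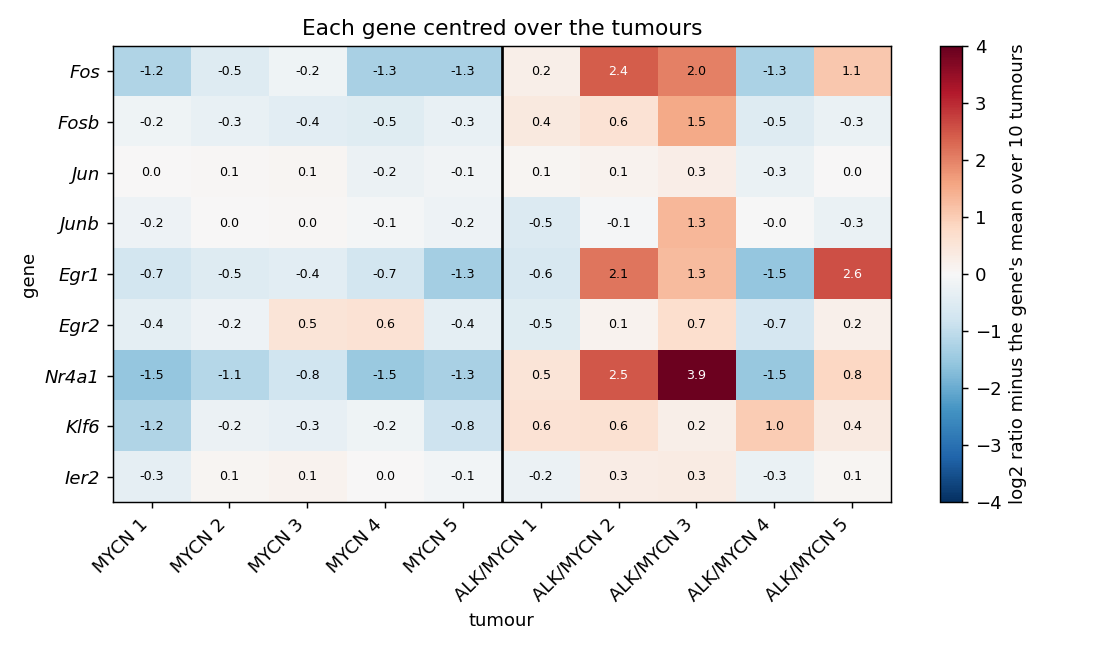
Log2 ratio of each tumour (columns, grouped by genotype) minus the mean of the gene over the 10 tumours, for the 9 genes tested (rows), with the value in each cell. ALK/MYCN 2, 3 and 5 are high for Nr4a1, Fos and Egr1, and ALK/MYCN 4 is low for these genes but not for Klf6.

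The SD between ALK/MYCN tumours was larger than that between MYCN tumours for 8 of the 9 genes, as it was for 46% of all genes. The ratio of the SDs was 6.88 for Fosb, 6.79 for Nr4a1, 5.74 for Junb, 5.01 for Egr1 and 2.81 for Fos. These 5 exceeded a ratio of 2, which 11.8% of all genes did. Klf6 was the exception, with a ratio of 0.651. In MYCN tumours the background-corrected log2 Cy3 signal was 6.42 to 6.75 for Junb and 7.18 to 7.46 for Fosb. That of the undetected Egr3 probe was 5.98 to 6.25 over all tumours. Egr1 (8.79 to 9.43) and Nr4a1 (10.79 to 11.44) were brighter in MYCN tumours. The part of low signal in the small MYCN SDs was not tested. These ratios were looked at after the values were seen and are given as a description.

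The genes also varied together. Of the 36 pairs among the 9 genes, 35 had a positive Pearson r over the 10 tumours, with a median of 0.543, and 9 passed at an adjusted permutation p of 0.05 (100000 permutations, two-sided, Benjamini-Hochberg over the 36 pairs). For 5 of these Spearman's rho passed as well. The permutations shuffled all 10 tumours regardless of group, so a difference between the groups counts toward these p-values. No share over all pairs of genes on the array was computed. Since the groups differ, r was computed again after each group had been centred on its own mean. The median was then 0.598, with 30 pairs above 0. Centring leaves the spreads as they were, and for 8 of the 9 genes the SD was larger between ALK/MYCN tumours. These tumours therefore weigh more in the centred r. Without ALK/MYCN 3 the median was 0.422, with 27 pairs above 0. The values after centring and those without ALK/MYCN 3 carry no test.

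Fos and Nr4a1 were the closest pair. Their r was 0.95 (permutation p = 0.00011, adjusted 0.00396) and rho 0.867 (permutation p = 0.00208, adjusted 0.0261). It was 0.948 without ALK/MYCN 2 and ALK/MYCN 3, the tumours farthest from the median of Fos, and 0.907 after centring of the groups. Fos and Egr1 had an r of 0.881 (permutation p = 0.00232, adjusted 0.0278) and a rho of 0.867 (permutation p = 0.00199, adjusted 0.0261), with an r of 0.841 without the same tumours. Fosb and Nr4a1 had an r of 0.915 (permutation p = 0.0016, adjusted 0.0278) but a rho of 0.673 (permutation p = 0.0381, adjusted 0.106). Without ALK/MYCN 2 and ALK/MYCN 3 the r of Fosb with Nr4a1 was 0.594, so that this relation rests largely on those tumours.

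Klf6 stood apart from the others. None of its 8 pairs passed, and their median r was 0.244, against 0.616 among the other pairs. With Nr4a1, the other gene that rose, its r was 0.445 over all tumours and -0.384 after centring of the groups. Klf6 was highest in ALK/MYCN 4, the tumour in which Nr4a1, Fos and Egr1 were not above the MYCN tumours.

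**Figure D4:**
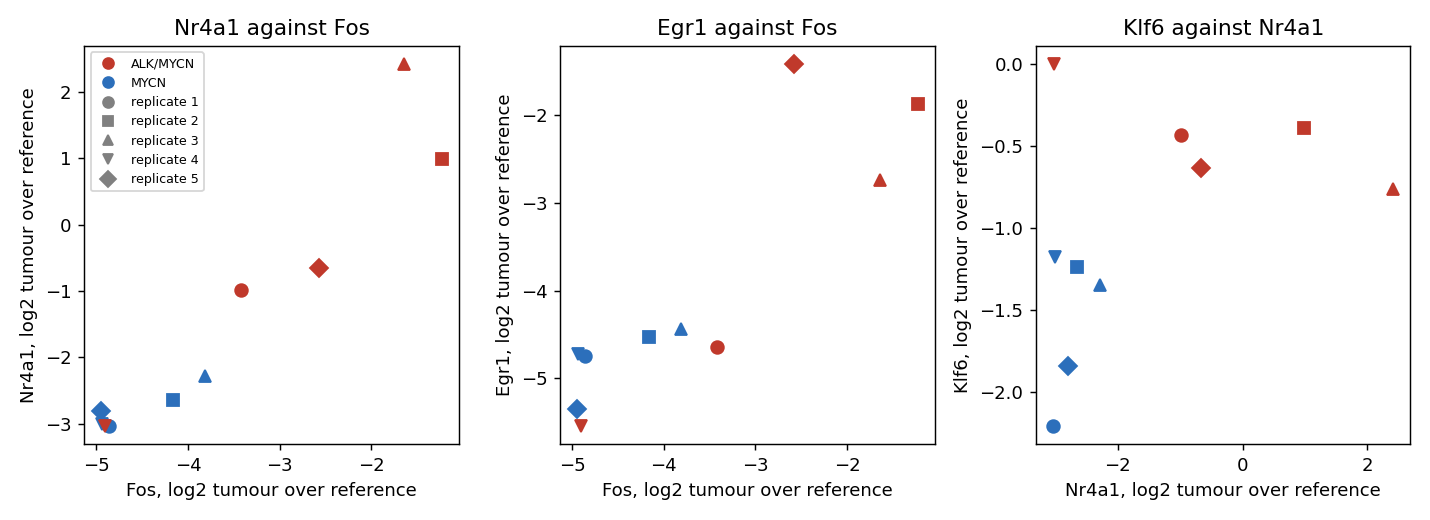
Log2 ratios of tumour over reference, 1 point per tumour, coloured by genotype and shaped by replicate number: Nr4a1 against Fos, Egr1 against Fos, and Klf6 against Nr4a1 (y axis against x axis). Nr4a1 follows Fos closely (r = 0.95), and within the groups Klf6 does not rise with Nr4a1 (r = -0.384 after centring).

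By a rule of likeness, genes other than the members whose values followed the mean of the 9 genes most closely, after centring of each group, included Creb3l2 (r = 0.995), Itga9 (0.943), Sin3b (0.909) and Nrn1 (0.909). These 4 were among the 5 highest of 22147 genes compared over 10 tumours and are given without a test. The genes share arrays and reference with the members. The members were not scaled to equal spread, so those of wide range, such as Nr4a1 and Egr1, weigh more in their mean, as do the ALK/MYCN tumours.

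Other genes of the same response were counted in the same way, with no test of a list. Of the 7 other AP-1 and related bZIP genes tested, none rose and 2 fell, with a median difference of 0.0083. Jund, the JUN protein that is present without stimulation, fell by 0.39 (SE 0.10, limma adjusted p = 0.0152). It passed in 20 of 25 other settings and was at -0.13 with centring on spike-in spots (limma, adjusted p = 0.348). Batf, an AP-1 partner of lymphoid and myeloid cells, fell by 1.41 (SE 0.31, limma adjusted p = 0.0094). Batf passed in 23 of 24 other settings, at -2.47 to -0.997. It lost its call only with the mean of stromal markers as a covariate, at -0.997 (limma, adjusted p = 0.0768). Of 9 macrophage markers 6 fell as well, and the part of these cells in the Batf value was not tested. Atf3, a stress-induced bZIP factor, differed by 0.42 (limma, adjusted p = 0.21). Of the EGR and NR4A relatives, Egr4 differed by 1.05 and Nr4a2 by -0.52, and neither passed (limma, adjusted p = 0.162 and 0.485). The EGR corepressors Nab1 and Nab2 differed by 0.33 and 0.68, with limma adjusted p-values of 0.187 and 0.126. The median difference of these 4 genes was 0.50, with 3 of 4 above 0. Their mean, centred over all tumours, was 0.31 to 0.95 in ALK/MYCN tumours 1, 2, 3 and 5, above the -0.30 to -0.05 of the MYCN tumours, and -0.97 in ALK/MYCN 4. The 7 other AP-1 and bZIP genes did not show this pattern. Their mean was -0.47 to 0.42 in ALK/MYCN tumours and -0.27 to 0.44 in MYCN tumours.

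Of 16 other immediate early genes 14 were tested, none rose and 2 fell. The median difference of the 14 was -0.04, with 7 of them above 0. Their mean, centred over all tumours, was -0.48 to 0.58 in ALK/MYCN tumours and -0.42 to 0.51 in MYCN tumours. Ctgf, a matricellular protein and YAP target, fell by 1.12 (SE 0.36, limma adjusted p = 0.0446). Ier5 fell by 0.55 (SE 0.14, limma adjusted p = 0.016). The phosphatase Dusp1, which switches MAP kinases off, differed by 0.61 (limma, adjusted p = 0.112). In the 10 fits that leave out 1 tumour, the Dusp1 difference ran from 0.48 without ALK/MYCN 2 (limma, adjusted p = 0.218) to 0.80 without ALK/MYCN 4, the 1 fit in which it passed (limma, adjusted p = 0.0327). Ctgf lost its call in 8 of the 10 fits that leave out 1 tumour, with limma adjusted p-values up to 0.0969, and Ier5 was at -0.28 as the mean over probes (limma, adjusted p = 0.132).

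The kinases and factors upstream of these genes moved in both directions. Of 16 genes tested, 5 rose and 3 fell, with a median difference of -0.02. Rps6ka2, an RSK kinase, rose by 0.88 (SE 0.10, limma adjusted p = 0.000615). Mapk3, which encodes the kinase ERK1, rose by 0.79 (SE 0.12, limma adjusted p = 0.00178). The CREB family members Creb1 and Crem rose by 0.64 and 0.74, and the Srf partner Elk1 rose by 0.28 (limma, adjusted p = 0.029, 0.0403 and 0.039). Atf1, a further CREB family member, fell by 0.49 (limma, adjusted p = 0.00401). Elk3 fell by 0.85 and the RSK kinase Rps6ka3 by 0.44 (limma, adjusted p = 0.0423 and 0.0416). Srf itself differed by -0.17 (limma, adjusted p = 0.135). Its sign was kept in 24 of 25 other settings and reversed to 0.092 with centring on spike-in spots. It passed in 1 of them, Cy3 alone (-0.23, limma adjusted p = 0.024). Rps6ka2, Mapk3 and Atf1 passed without each single tumour; Creb1, Crem, Elk1, Elk3 and Rps6ka3 each lost their call without at least 4 of the 10. As the mean over probes, Creb1 differed by 0.13 and Atf1 by -0.19, and neither passed (limma, adjusted p = 0.421 and 0.111).

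Several properties of the tissue moved with the groups or with single tumours. In whole tumours, fewer cells of a type and less RNA per cell cannot be told apart. The identity genes of neuroblastoma, such as Hand2 and Dbh, were well above background on every array (9 of 9). Of 10 endothelial markers 7 were lower in ALK/MYCN tumours and of 9 macrophage markers 6. The mean of the endothelial markers, centred over all tumours, was -0.79 to 0.01 in the ALK/MYCN group against -0.07 to 1.06 in the MYCN group. For the macrophage markers it was -0.72 to -0.14 against -0.34 to 0.94. With the mean of the endothelial, macrophage and fibroblast markers as a covariate, Klf6 differed by 1.46 (limma, adjusted p = 0.00449) and Nr4a1 by 3.04 (limma, adjusted p = 0.0785). In the same fit Elk3 was at -0.23, Rps6ka3 at -0.19, Creb1 at 0.38 and Ctgf at -0.63. None of these passed (limma, adjusted p = 0.317, 0.348, 0.225 and 0.313). Crem, Elk1, Ier5 and Jund also lost their calls in this fit, with limma adjusted p-values from 0.0569 to 0.0781. Their estimates shrank little or grew, from 0.74, 0.28, -0.55 and -0.39 to 0.89, 0.35, -0.54 and -0.36. Their SEs rose from 0.23, 0.09, 0.14 and 0.10 to 0.30, 0.11, 0.18 and 0.13. Atf1, Mapk3 and Rps6ka2 kept their calls. Of 5 skeletal muscle markers 2 fell in ALK/MYCN tumours. Their mean was -1.39 to -1.05 in the ALK/MYCN group and -0.56 to 4.28 in the MYCN group, with no overlap. It was 2.29 in MYCN 1, the tumour lowest for Klf6, Nr4a1 and Ier2, and the part of this tissue in those values was not tested. ALK/MYCN 3, the tumour highest for 6 genes, was the only one with all 5 adrenal cortex markers above background, among them Star at 7.39 and Cyp11b1 at 6.66. The part of this tissue in its values was not tested. When this tumour, MYCN 2 (mean of skeletal muscle markers 4.28) and MYCN 5, which the markers used here did not set apart, were left out, Klf6 differed by 1.21 (limma, adjusted p = 0.025) and Nr4a1 by 1.85 (limma, adjusted p = 0.161).

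The arrays lay on 3 slides with both groups on each. Within them Klf6 differed by 1.82, 0.78 and 0.84, Nr4a1 by 4.02, 2.47 and 1.92, Fos by 3.63, 1.62 and 1.73, and Egr1 by 2.87, 0.42 and 3.36. The slides held 1 against 1, 3 against 1 and 1 against 3 tumours (ALK/MYCN against MYCN). The sign was the same on every slide for these 4 genes, which for Klf6 follows from groups that do not overlap. Fosb and Jun kept their sign as well. Egr2 (0.52, -0.73 and 0.23), Ier2 (0.65, -0.08 and 0.03) and Junb (0.16, 0.33 and -0.23) changed sign between slides. With slide as a block Klf6 differed by 1.06 (limma, adjusted p = 0.0202) and Nr4a1 by 2.65, which no longer passed (limma, adjusted p = 0.102). Mycn was higher by 2.85 in the ALK/MYCN group (limma, adjusted p = 0.000763) and Alk differed by 0.07 (limma, adjusted p = 0.837). Whether either probe detects its transgene is not known here. Between 53.8% and 58.7% of the spots of an array were well above background, and the number of arrays limits the precision. Genes called over the whole array numbered 3166 higher and 2722 lower; with median centring of arrays in place of loess they numbered 4451 and 1349, and with centring on spike-in spots 8866 and 828.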

How the data were processed

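Expression was measured in 10 tumours on 2-colour Agilent arrays, all with the tumour in Cy3. Spot intensities were extracted by the authors with Agilent Feature Extraction 10.7.3.1, with probe positions on mm9, per the file headers. The deposited value table holds log2 ratios, which matched the log2 ratio of scanner-processed Cy3 to Cy5 signals within 5.01e-04 on every array, with array medians of -0.186 to -0.035. Later steps were not given in the sources used here.

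Mean signals were corrected for the median local background (normexp, offset 50), normalised within arrays by loess with controls at weight 0, and turned to tumour over reference. Outlier spots (177 to 345 per array) were set to missing; no spot was saturated. Values were averaged over the spots of a probe. The 30851 probes kept had Cy3 signals well above background on 5 or more arrays, and genes were represented by 1 probe each, chosen by highest mean intensity. Gene names were updated through RefSeq, assembly GRCm38.p6 (14148 by accession, 840 by symbol, 159 by synonym; 7082 kept the name of the array). Groups were compared with limma 3.58.1 in R 4.3.3, two-sided, with Benjamini-Hochberg adjustment over the 22229 genes. The procedure was tested on simulated data.

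The members, gene lists and tests were chosen with earlier results of these data known. Named are all members, every gene of the lists of the same response that passed, Srf, Atf3, Dusp1 and Jund, and 4 of the 5 genes most like the members (the other is not reported here); Egr4, Nr4a2, Nab1, Nab2 and the tissue markers named as examples were chosen after their values were seen. The labels call the samples biological replicates. Alternatives changed the background correction, normalisation, filter, probe summary, variance model or block, added a stromal covariate or left out tumours; correlations without ALK/MYCN 3 were added after seeing the data.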

Additional observations from a re-analysis of the deposited data

Results flagged for a closer look

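Junb in ALK/MYCN 3 stood apart from the other tumours of its group. Its log2 ratio was -0.245, and the next ALK/MYCN tumour was at -1.59, a gap of 0.721 of the range of the group, against a critical ratio of 0.71 for 5 samples. Of 20 groups examined (10 genes in both genotypes) it was the 1 marked in this way, and chance marks about 1 group in 20. The adrenal cortex markers of the same tumour were high as well, and their part in this value was not tested.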

How the results depend on the processing

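The 2 rises and 0 falls among the 9 genes became 1 rise with scanner-processed signals, a normexp offset of 10, Cy3 alone, no filter on dim probes, the mean over probes, slide as a block, a stromal covariate, or when MYCN 2, MYCN 5 and ALK/MYCN 3 were left out together. They became 3 with median centring and with scaling between arrays, where Fos passed too, and 5 with spike-in centring, where all genes had a median of 0.255 and Fos, Fosb and Jun (0.35) passed. Without single tumours the rises numbered 1 to 4. Klf6 passed in each setting, and no gene fell in any. The cause of these changes was not tested. The genes called over the array, 5888, became 9694 with spike-in centring, 3691 without the 3 tumours, 3875 with the stromal covariate and 4127 to 5429 without single tumours, where fewer arrays were used. Egr2 reversed to 0.0938 with median centring, 0.21 with spike-in centring, 0.10 with scaling between arrays and 0.48 with the stromal covariate, and ranged from -0.22 to 0.11 without single tumours. Junb reversed to -0.14 without the 3 tumours and ranged from -0.14 to 0.33 without single tumours, and Srf reversed to 0.092 with spike-in centring. Junb had no value under the filter that needs signal on each array. The replicate numbers of the labels did not pair the tumours: deviations of same-numbered tumours correlated at -0.091 to 0.34, and 2 of 10 tumours correlated best with their own number. With the replicate block 3 members rose, Fos among them, and 4619 genes were called. Values near background limit Egr3 and Junb, which were not well above background on every array. The background correction also moved dim genes that were. Fos differed by 2.02 and Fosb by 0.78 with a normexp offset of 10, and by 2.31 and 1.01 with scanner-processed signals. The brighter Klf6 stayed at 1.116 and 1.075.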

Other observations

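Of the 7 heat shock genes tested, which are induced by stress to proteins, none passed between the genotypes (limma, adjusted p from 0.264 to 0.85), and the median difference was -0.11. Their mean, centred over all tumours, was 1.02 in MYCN 1 and -0.32 to 0.16 in the other 9 tumours. The genes were not alike in this. Hspa1a, an inducible HSP70, was at 3.22 in MYCN 1, Hsph1 at 2.39 and Dnajb1 at 1.37, each the highest of the 10 tumours. Bag3 was highest in ALK/MYCN 4 (1.74) and Hspb1 in MYCN 2 (1.18). The mean of the immediate early genes was -0.64 in MYCN 1 and -0.66 in MYCN 5, where the heat shock mean was -0.22. MYCN 1 also had skeletal muscle markers at a mean of 2.29.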
